A study of Mus musculus with 5 samples.

Results

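The genes described here are the axon guidance ligands and receptors of the mouse: the semaphorins of classes 3 to 7 with their plexin and neuropilin receptors, the netrins with Dcc, Neo1 and the Unc5 receptors, the Slits with the Robo receptors, and the ephrins with the Eph receptors. They were chosen by gene symbol from the protein-coding genes, by a rule that uses no measured value but was written with earlier results of these data known, which gave 72 members among 53700 gene IDs. There were 20 semaphorins, 9 plexins, 2 neuropilins, 4 netrins, 6 netrin receptors, 3 Slits, 4 Robos, 5 ephrin-A, 3 ephrin-B, 9 EphA and 5 EphB genes. Unc50, which encodes a Golgi membrane protein, and Unc5cl, an Unc5c-like gene, fell under the symbol rule without being guidance receptors and are counted apart from the 35 ligands and 35 receptors. The antisense genes that share the Plxna4 name are non-coding and were not counted as members.

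Guidance cues are surface-bound or secreted proteins that attract or repel a growing axon by acting on receptors that steer its cytoskeleton. Semaphorins signal through plexins, the secreted class 3 forms mostly with neuropilins as co-receptors. Netrin-1 attracts through Dcc and repels through Unc5 receptors, and Slits repel through Robos. Ephrins act on Eph receptor tyrosine kinases and can signal back into the cell that carries them. Netrin-1 with Dcc, Slits with Robos, semaphorins and ephrins all take part in laying down the projection of midbrain dopaminergic (DAergic) neurons to the striatum, and many of these genes stay expressed in the adult brain, where they act at synapses.

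The measurement was BAC-TRAP, in which RNA is recovered with ribosomes that carry an EGFP-tagged L10a protein, followed by poly(A) RNA sequencing without strand information. Midbrain was taken from C57BL/6 mice aged 4 months, all of which carried the L10a transgene and had been injected with AAV:THCre, an adeno-associated virus that expresses Cre from the Th promoter. The genotypes were L10a;Esrrg WT, with intact alleles (WT, 3 libraries, replicates 2, 3 and 4), and L10a;Esrrg Flox, in which Cre removes exon 2 of Esrrg, the gene of the nuclear receptor ERRγ (Flox, 2 libraries, replicates 2 and 4), 1 month after the injection. Each library pooled the midbrains of several mice, so every p-value measures the spread between these pools. The tag was switched on by the virus as well, so tag and deletion mark whichever cells expressed Cre, and libraries of input RNA were not analysed here. The comparison asks which ribosome-bound RNAs of guidance genes differ after loss of ERRγ.

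The libraries held 20635855 to 23105058 counts assigned to genes, and 3 counts corresponded to 0.13 to 0.145 CPM. Flox 4 stood apart, with a chi-square per degree of freedom of 42.3 to 49 against the WT libraries, beside 12.1 to 28.8 for Flox 2. Normalized counts of Esrrg over the whole gene, of which only exon 2 is deleted, were 1763, 1643 and 1726 in WT and 1504 and 1170.1 in Flox, with a log2 fold change of -0.35 ± 0.13 (SE) and a DESeq2 adjusted p of 0.0753. Without Flox 2 the log2 fold change was -0.55 (DESeq2 adjusted p = 0.00582) and without Flox 4 it was -0.19. All 12 dopaminergic markers were detected and their summed normalized counts overlapped between genotypes (53780 to 63410 in WT, 54450 and 57200.0 in Flox), but the markers of oligodendrocytes summed to more, 109400 to 161200 in WT and 125600 and 150300 in Flox, so the libraries also held RNA of other cells. Single dopaminergic markers differed more than their sum, and in both directions. Both Flox libraries lay below every WT library in 5 of 12 markers and above every WT library in 2 of 12. Among all genes with a mean of at least 10 normalized counts, these shares were 22.0% and 20.0%. The 2 higher markers were Ddc and Slc18a2 (log2 fold change 0.23 and 0.18, adjusted p = 0.242 and 0.308 by DESeq2). Ret, the GDNF co-receptor, fell (log2 fold change -0.40, adjusted p = 0.00291 by DESeq2). The level of a gene in such a library cannot tell fewer cells of a type apart from less RNA per cell.

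Guidance genes were mostly present, and few differed between the genotypes. Normalized counts averaged at least 10 in 68 of the 72 members, and 67 had a DESeq2 adjusted p. No member rose and 3 fell at an adjusted p under 0.05, namely the semaphorin Sema4g and the Eph receptors Ephb6 and Epha8. The share that fell, 4.48% of 67, was close to the 4.05% of all 15724 tested genes that fell, while 4.2% of all tested genes rose and 8.25% passed in either direction. With a fold of at least 1.5 required as well, Epha8 remained (1 of 67, against 1.41% of all tested genes lower and 1.77% higher). Of the 68 members, 7 had a log2 fold change below 0 with an unadjusted p under 0.05 (10.3%, the same as the 10.3% of all 16178 genes with a mean of at least 10), and 1 had one above 0 (1.47%, against 9.59%).

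For 49 of the 68 members the 95% interval of the fold change stayed within 1.5-fold in both directions (72.1%, against 49.8% of all genes with a mean of at least 10). The median log2 fold change was -0.10 for the members and -0.0048 for all genes with a mean of at least 10, and the estimate was below 0 in 42 of 68 members (61.8%, against 50.7% of all genes). Both Flox libraries lay below every WT library in 14 members (20.6%, against 22.0%) and above every WT library in 9 (13.2%, against 20.0%). The ranges of the genotypes overlapped in the other 45. Flox 4 was the lowest of the 5 libraries in 28 members (41.2%, against 31.5%), and the members' median was -0.03 without Flox 4 and -0.14 without Flox 2.

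**Figure D1:**
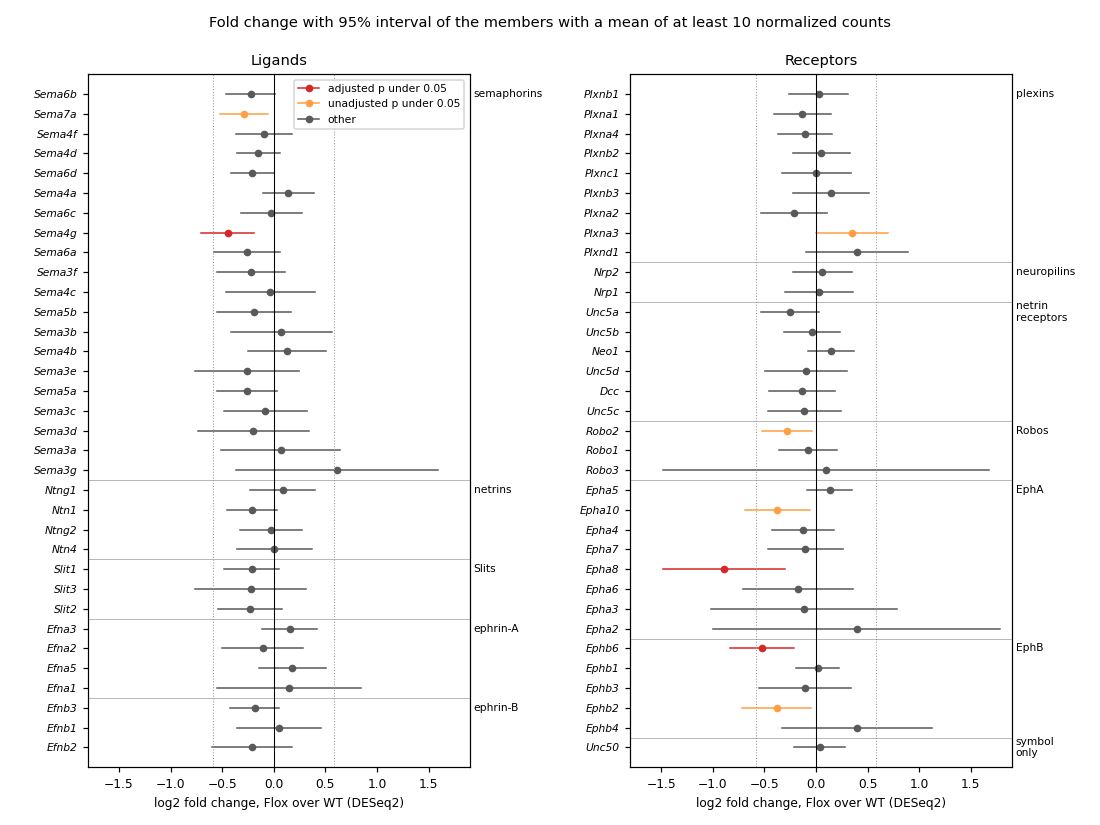
Log2 fold change of Flox over WT (horizontal axis, DESeq2, point) with its 95% interval (line) for each of the 68 members with a mean of at least 10 normalized counts, ligands on the left and receptors on the right, ordered by WT level within each role. Dotted lines mark a 1.5-fold change. Red marks the 3 members with an adjusted p under 0.05 and orange the 5 others with an unadjusted p under 0.05, and 42 of the 68 points lie left of 0.

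Sema4g encodes a transmembrane class 4 semaphorin. Its normalized counts were 979, 917 and 842 in WT and 671 and 668 in Flox. Both Flox libraries lay below every WT library and were nearly equal to each other. Sema4g fell by 26.6% on the means, a log2 fold change of -0.45 ± 0.13 (SE) with a DESeq2 adjusted p of 0.0149. Leaving out any one library moved the estimate only between -0.50 and -0.39, but the adjusted p by DESeq2 was 0.247 without WT 2, 0.13 without WT 3, 0.0906 without Flox 2 and 0.360 without Flox 4. Plxnb2, the plexin that binds Sema4c and Sema4g, had 678, 568 and 668 normalized counts in WT and 663 and 661 in Flox, so its Flox values lay inside the WT range (log2 fold change 0.05, adjusted p = 0.903 by DESeq2).

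Ephb6 encodes an Eph receptor whose kinase domain is inactive, so that it signals only through partners. It was the most abundant Eph receptor per length, with normalized counts of 1105, 1023 and 1081 in WT and 874 and 615 in Flox. The WT libraries were close together, whereas the Flox libraries were both lower and differed from each other. Ephb6 fell by 30.4% on the means, a log2 fold change of -0.52 ± 0.16 (SE) with a DESeq2 adjusted p of 0.0196. The size rested on Flox 4: the log2 fold change was -0.29 without Flox 4 (adjusted p = 0.729) and -0.80 without Flox 2 (adjusted p = 1.6e-04, both by DESeq2). Without WT 2 or WT 3 the DESeq2 adjusted p was 0.173 and 0.069.

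Epha8 encodes a receptor tyrosine kinase for ephrin-A ligands. It had 157, 193 and 167 normalized counts in WT and 125 and 60.6 in Flox. Both Flox values were below all WT values, and Flox 4 was the lower by a wide margin. Epha8 fell by 46.1% on the means, a log2 fold change of -0.89 ± 0.30 (SE) with a DESeq2 adjusted p of 0.0407. As for Ephb6, the estimate moved with the Flox library used, to -0.47 without Flox 4 (adjusted p = 0.844) and -1.51 without Flox 2 (adjusted p = 0.00102, both by DESeq2). Without WT 2 or WT 3 the DESeq2 adjusted p was 0.152 and 0.249.

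The stretches upstream of the start sites of these 3 genes are shown because they are the members that passed the test. ERRγ is known to bind the half-site AAGGTCA, which reads TGACCTT on the other strand, and none of the 3 stretches holds it. Of all windows of this length 4.08% hold it, so its absence here cannot decide whether ERRγ binds elsewhere at these genes. Capitals mark the GC box GGGCGG, which reads CCGCCC on the other strand, the element bound by Sp1-type factors, and boxes that overlap run together. Each is the 250 bases before a RefSeq start site in GRCm38.p6, written 5′ to 3′ on the strand of the gene: Epha8 at chr4:136956817-136957066 on the minus strand with 6 GC boxes, Ephb6 at chr6:41605261-41605510 on the plus strand with 5, and Sema4g at chr19:44989094-44989343 on the plus strand with 3.
Epha8: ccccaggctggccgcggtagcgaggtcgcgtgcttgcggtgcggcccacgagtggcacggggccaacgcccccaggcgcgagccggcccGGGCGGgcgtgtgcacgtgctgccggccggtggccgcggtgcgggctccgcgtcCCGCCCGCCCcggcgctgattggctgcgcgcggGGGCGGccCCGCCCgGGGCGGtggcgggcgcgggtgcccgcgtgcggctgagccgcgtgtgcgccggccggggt
Ephb6: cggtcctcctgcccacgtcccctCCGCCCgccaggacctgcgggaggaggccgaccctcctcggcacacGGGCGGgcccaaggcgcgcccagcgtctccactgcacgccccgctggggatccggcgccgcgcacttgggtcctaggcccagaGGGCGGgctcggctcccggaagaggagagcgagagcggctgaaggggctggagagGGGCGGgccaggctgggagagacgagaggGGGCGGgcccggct
Sema4g: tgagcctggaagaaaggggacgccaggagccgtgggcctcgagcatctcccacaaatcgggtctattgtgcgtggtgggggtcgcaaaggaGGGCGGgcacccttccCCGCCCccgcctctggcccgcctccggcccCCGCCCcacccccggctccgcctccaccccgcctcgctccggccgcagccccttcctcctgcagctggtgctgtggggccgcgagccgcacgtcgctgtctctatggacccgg

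Such GC-rich upstream stretches were common among guidance genes. RefSeq windows were found for 62 of the 72 members, 78 windows in all, and the other 10 members (Dcc, Efnb3, Ntn1, Plxna1, Plxna4, Sema3b, Sema3f, Sema6a, Slit1 and Unc5d) had none. A GC box was present in 56 of the 78 member windows (71.8%), against 32.7% of all 32851 windows, and the median GC content was 64.4% against 52.4%. The ERR half-site was present in 3 member windows (3.85%), against 4.08% of all windows, and these are shown with the half-site in capitals because ERRγ is the deleted factor. They lie 243 bases before a start site of Sema4b (chr7:80186620-80186645), 246 before one of Nrp1 (chr8:128358823-128358845) and 140 before one of Sema5a (chr15:32244661-32244691), all on the plus strand.
Sema4b: acatgccAAGGTCAgagagggtgcag
Nrp1: ctagTGACCTTcttcccgcggag
Sema5a: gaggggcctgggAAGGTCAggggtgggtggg
These 3 genes did not share a direction. The log2 fold changes were 0.13 for Sema4b, 0.03 for Nrp1 and -0.26 for Sema5a, with DESeq2 adjusted p of 0.804, 0.960 and 0.336, and a match is no evidence of binding.

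Levels in WT are compared between genes as normalized counts per kilobase of exon, with SD over the 3 WT libraries. The ligand Efnb3, a transmembrane ephrin that acts as a midline repellent in the spinal cord, stood highest at 1141 ± 96.6 per kb. The transmembrane semaphorin Sema6b followed at 867 ± 67.2 per kb and Sema7a, which is held in the membrane by a lipid anchor, at 617 ± 54.7 per kb. The WT libraries of these 3 ligands did not overlap with one another, nor with those of Efna3 at 309.8 ± 20.8 per kb, the highest of the ephrin-A genes. Below them lay the receptors Ephb6 (284 ± 11.2 per kb), Unc5a (261 ± 35.0 per kb) and Ephb1 (232 ± 6.22 per kb) and the ligands Sema4f (244 ± 28.0 per kb), Ntng1 (212 ± 24.4 per kb) and Ntn1 (211 ± 18.7 per kb), where each differed from the next in the order by less than the larger of their SDs. Summed per kb, the ligands reached 5281 to 5546 in the WT libraries, against 2282 to 2439 for the same number of receptors. A large part of the ligand sum came from Efnb3, Sema6b and Sema7a. Without scaling by length the order of the medians was the reverse, at 418.2 normalized counts for ligands and 492.5 for receptors over all 5 libraries. The receptors had the longer exons (median 8349 bases, against 5783).

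Ephb6 and Unc5a led the EphB and netrin receptors, and the highest members of the other receptor families were Epha5 (135 ± 11.0 per kb), Plxnb1 (96.1 ± 6.07 per kb), Nrp2 (65.3 ± 7.10 per kb) and Robo2 (53.0 ± 1.55 per kb). Slit1 led the Slits at 106 ± 4.27 per kb. Dcc, the netrin receptor best known from the guidance of DAergic axons, was lower at 32.0 ± 1.70 per kb. At the other end, Epha2, Efna4, Robo3, Epha1, Robo4 and Unc5cl had fewer than 3 normalized counts per kb in WT, and Unc5cl reached at most 1.05 normalized counts in any library. Robo4 is known from vascular endothelium, and Robo3 from commissural axons in the embryo.

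**Figure D2:**
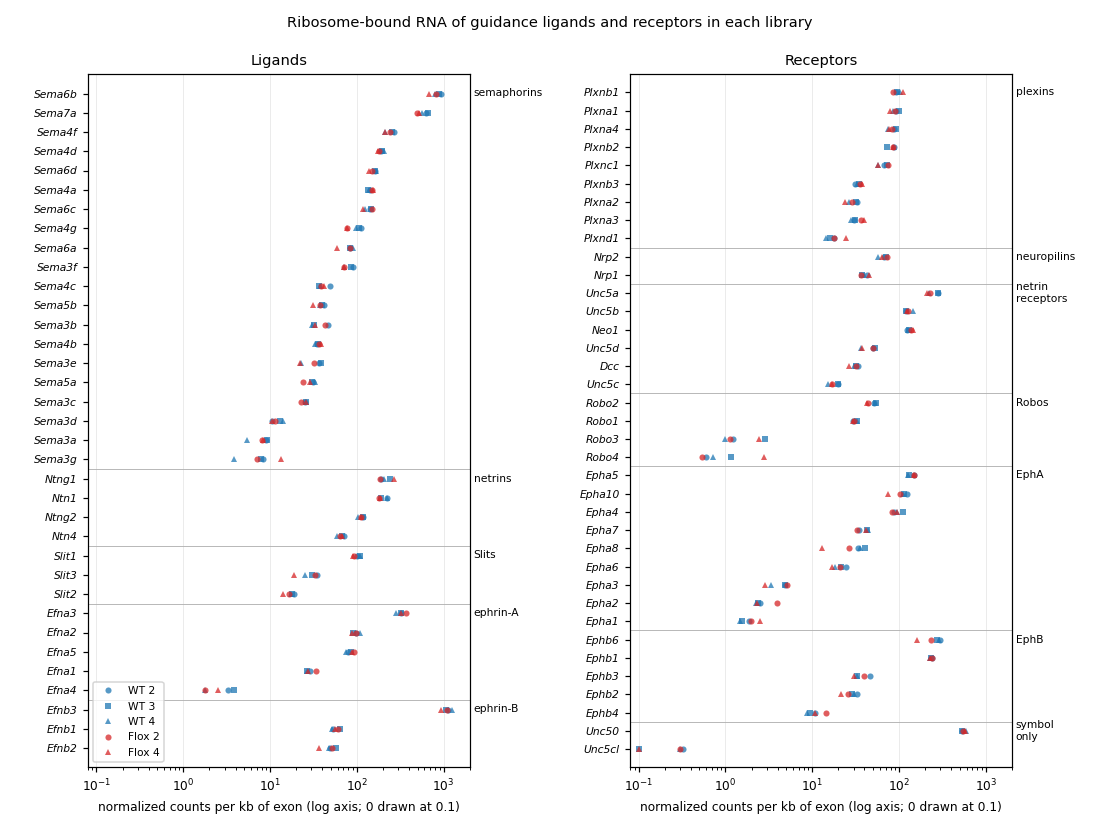
Normalized counts per kilobase of exon (horizontal log axis) of each of the 72 members, with ligands on the left and receptors on the right, grouped by role and ordered by WT level. Each point is 1 library, blue for the 3 WT and red for the 2 Flox libraries, and values of 0 are drawn at 0.1. Levels run from 1141 per kb on average for Efnb3 in WT down to 0.208 per kb for Unc5cl, and for most genes the blue and red points overlap.

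Among the ligands, most of the membrane-bound semaphorins of classes 4 to 7 had estimates below 0. Their log2 fold change was below 0 in 11 of 13 genes (84.6%, against 50.7% of all genes), with a median of -0.19, and in 6 of 13 both Flox libraries were below every WT library (46.2%, against 22.0%). Only Sema4g passed the test, and the classes were not compared by a test. Sema7a, which acts through plexin-C1 and integrins, had 2065, 2198 and 1841 normalized counts in WT and 1630.2 and 1694 in Flox. Its groups did not overlap, but at a log2 fold change of -0.29 ± 0.12 (SE) its DESeq2 adjusted p was 0.11. Plxnc1, the plexin for Sema7a, had 563, 603 and 480.4 normalized counts in WT and 621 and 478 in Flox, a spread as wide in each genotype. The estimates for Sema6d, Sema4d, Sema5a and Sema5b were -0.21, -0.15, -0.26 and -0.19 with Flox below every WT library, and Sema4a and Sema4b showed the opposite order at 0.14 and 0.13, all 6 with DESeq2 adjusted p between 0.260 and 0.804.

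All 4 class 6 semaphorins, which signal to plexin-A receptors, had estimates below 0 (-0.02 to -0.26, against 50.7% of all genes below 0). All 4 had their lowest value in Flox 4 (against 31.5% of all genes). Sema6b, the most abundant, had 3693, 3470 and 3162 normalized counts in WT and 3197 and 2698 in Flox. Flox 2 lay inside the WT range and Flox 4 below it (log2 fold change -0.22 ± 0.12 SE, adjusted p by DESeq2 = 0.286). Sema6a was even between WT (727, 724 and 783) and Flox 2 (729), with 515 in Flox 4 alone. The median of the 13 class 4 to 7 genes was -0.09 without Flox 4 and -0.21 without Flox 2.

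The 7 secreted class 3 semaphorins were less abundant and overlapped between the genotypes in every case. Their estimates ran from -0.26 for Sema3e to 0.61 for Sema3g, with none at an unadjusted p under 0.05. Sema3e had 345, 359 and 208 normalized counts in WT and 301 and 207 in Flox, with WT 4 and Flox 4 both low. Sema3g, a class 3 member of blood vessels, had 37.9, 35.7 and 17.3 in WT and 31.7 and 60.6 in Flox, with only Flox 4 above the WT range. Their receptors were close to WT: Nrp1 and Nrp2 had log2 fold changes of 0.03 and 0.06, both with overlapping libraries, and for Nrp2 the normalized counts were 801, 841 and 679 in WT and 853 and 762 in Flox.

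Plexins did not share the order of the semaphorins. Their median was 0.03, with 6 of 9 estimates above 0 and 3 below (33.3%, against 50.7% of all genes). No plexin had both Flox libraries below every WT library (against 22.0% of all genes). Both lay above every WT library in 3 of 9 (33.3%, against 20.0%), and the families were not compared by a test. Plxna3, a receptor for class 3 semaphorins in a complex with neuropilins, was the one member with an unadjusted p under 0.05 on the higher side. It had 240.2, 245 and 220.0 normalized counts in WT and 289 and 311 in Flox, so both Flox libraries lay above WT (log2 fold change 0.35 ± 0.18 SE, adjusted p by DESeq2 = 0.237). The other plexin-A genes, Plxna1, Plxna2 and Plxna4, had estimates of -0.13, -0.21 and -0.10, and for Plxna4 reads of its overlapping antisense genes cannot be told apart without strand. The plexin-B genes had estimates of 0.03, 0.05 and 0.14, and Plxnb1, the highest plexin per kb, had 881, 897 and 989 normalized counts in WT and 821 and 1059.7 in Flox, the lowest and the highest of the 5 libraries.

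Netrins and their receptors were near WT as well, and none of the 10 genes had an unadjusted p under 0.05. Ntn1, the secreted netrin that attracts axons through Dcc, had 1405, 1190.3 and 1379.7 normalized counts in WT and 1135.5 and 1157 in Flox, both Flox values below WT (log2 fold change -0.21 ± 0.12 SE, adjusted p by DESeq2 = 0.351). Ntng1, a membrane-anchored netrin found at synapses, had 1575, 1969.8 and 1708 in WT and 1533 and 2187 in Flox, so its Flox libraries were the lowest and the highest. Dcc had 444, 422 and 399 in WT and 419.8 and 348 in Flox (log2 fold change -0.13 ± 0.16 SE, adjusted p = 0.738 by DESeq2). Flox 2 was level with WT and only Flox 4 was below.

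Unc5a, the most abundant of the repulsive netrin receptors, had 1163, 1179.0 and 919 normalized counts in WT and 943 and 882 in Flox (log2 fold change -0.25 ± 0.14 SE, adjusted p by DESeq2 = 0.328), with WT 4 as low as the Flox libraries. Neo1, a Dcc relative that also binds repulsive guidance molecules, was the one netrin receptor with both Flox libraries above WT, at 1089, 1139 and 1094 against 1190.2 and 1265 (log2 fold change 0.15 ± 0.11 SE, adjusted p = 0.525 by DESeq2). For all 6 netrin receptors the 95% interval stayed within 1.5-fold.

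The Slits had estimates of similar size, between -0.21 and -0.23, and their lowest value in Flox 4 in all 3 cases (against 31.5% of all genes). Slit1 had 599, 646 and 639.9 normalized counts in WT and 545 and 539 in Flox, and Slit2 had 486, 450.4 and 439 in WT and 424 and 357 in Flox. In these 2 genes Flox lay below every WT library, while Slit3 overlapped, and the DESeq2 adjusted p of the Slits ran from 0.389 to 0.740. Robo2, a Slit receptor that helps to keep axons away from the midline, had 879.7, 930.4 and 893 in WT and 751 and 734 in Flox. Its Flox libraries were close together and below WT, and its log2 fold change of -0.28 ± 0.12 (SE) hardly moved when a library was left out (-0.30 to -0.26), but its DESeq2 adjusted p was 0.151. Robo1 overlapped at -0.08.

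No ephrin had an unadjusted p under 0.05. Of the ephrin-A genes with a mean of at least 10, 3 of 4 had estimates above 0 (0.15 for Efna1, 0.15 for Efna3, 0.18 for Efna5) and Efna2 was at -0.11. Efna5 had both Flox libraries (378 and 349.9 normalized counts) above every WT library (301 to 349.5), by a margin under 1 count for Flox 4. Efna3 had 785, 782 and 696 normalized counts in WT and 896 and 780.4 in Flox. Efnb3, the most abundant member of all, had 3541, 3379 and 3974 in WT and 3453 and 2944 in Flox, Flox 4 alone being below WT (log2 fold change -0.18 ± 0.12 SE, adjusted p by DESeq2 = 0.423). Efnb1 was at 0.05 and Efnb2 at -0.21, both overlapping.

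Among the Eph receptors the lower estimates came from a few genes while others were level. Beside Ephb6 and Epha8, 2 more receptors had both Flox libraries below WT and an unadjusted p under 0.05. Epha10, which like Ephb6 lacks kinase activity, had 879, 812 and 795 normalized counts in WT and 744 and 533 in Flox (log2 fold change -0.38 ± 0.16 SE, adjusted p by DESeq2 = 0.141). Its Flox 4 value was the lower one, and its estimate was -0.16 without Flox 4. Ephb2, a kinase for ephrin-B ligands at excitatory synapses, had 409, 366 and 384 in WT and 325 and 268 in Flox (log2 fold change -0.38 ± 0.17 SE, adjusted p by DESeq2 = 0.163). In all 4 of these receptors, where both Flox libraries lay below WT, Flox 4 was the lowest library (against 31.5% of all genes).

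The abundant kinase-active receptors Ephb1 and Epha5 did not follow. Ephb1 had 1664, 1624 and 1577 normalized counts in WT and 1684 and 1598 in Flox. The libraries were close to one another, and its log2 fold change was 0.02 with a 95% interval of -0.19 to 0.23. Epha5, a receptor of the nigrostriatal system, had 2471, 2206 and 2118 in WT and 2498 and 2471 in Flox (log2 fold change 0.13 ± 0.11 SE, adjusted p by DESeq2 = 0.573). Epha4, Epha6, Epha7, Epha3 and Ephb3 lay between -0.17 and -0.10 with overlapping libraries.

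**Figure D3:**
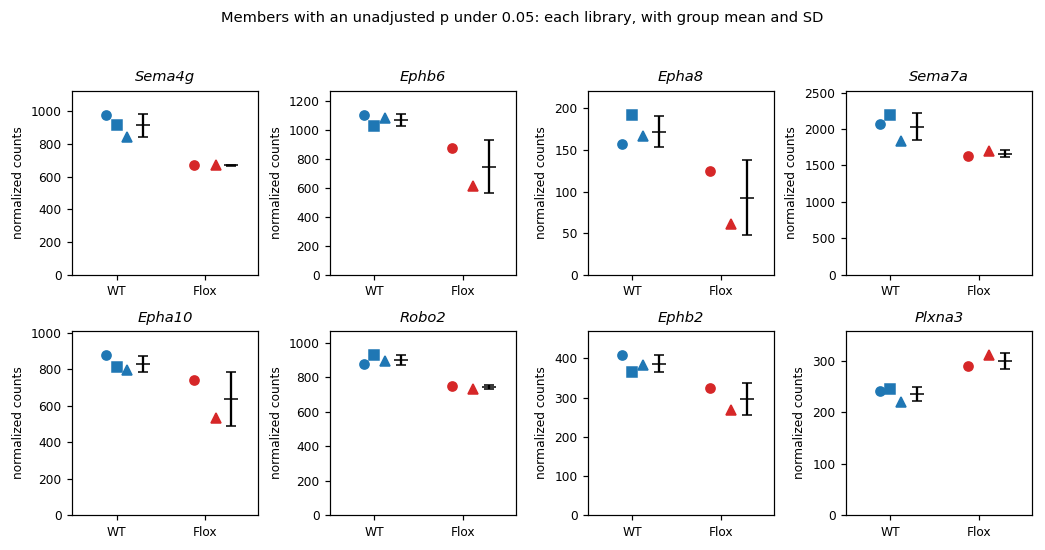
Normalized counts (vertical axis from 0) in each library of the 8 members with an unadjusted p under 0.05, blue for WT and red for Flox, with circles, squares and triangles for replicates 2, 3 and 4 and black bars for the group mean and SD. The first 3 panels, Sema4g, Ephb6 and Epha8, are the ones with an adjusted p under 0.05. In all 8 genes both Flox libraries lie on one side of the WT libraries, and Flox 4 lies well below Flox 2 in Ephb6, Epha8, Epha10 and Ephb2.

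The calls depended on the libraries and the tool more than the estimates did. All 3 genes kept an estimate below 0 in all 13 alternative fits. With edgeR's quasi-likelihood test, 0 members had an adjusted p under 0.05 and a lower level (0.628% of all genes) and with limma voom also 0 (0.0% of all genes), while 8 members were lower at an unadjusted p under 0.05 by each tool, near the share of all 16711 genes fitted (11.5% by either tool). Leaving out Flox 4 gave 0 members lower by DESeq2 (0.365% of all genes) and leaving out Flox 2 gave 4 (5.49% of all genes). Leaving out WT 2 or WT 3 also gave 0 (0.893% and 1.91% of all genes). The share called over the whole table fell and rose along with the members' count.

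**Figure D4:**
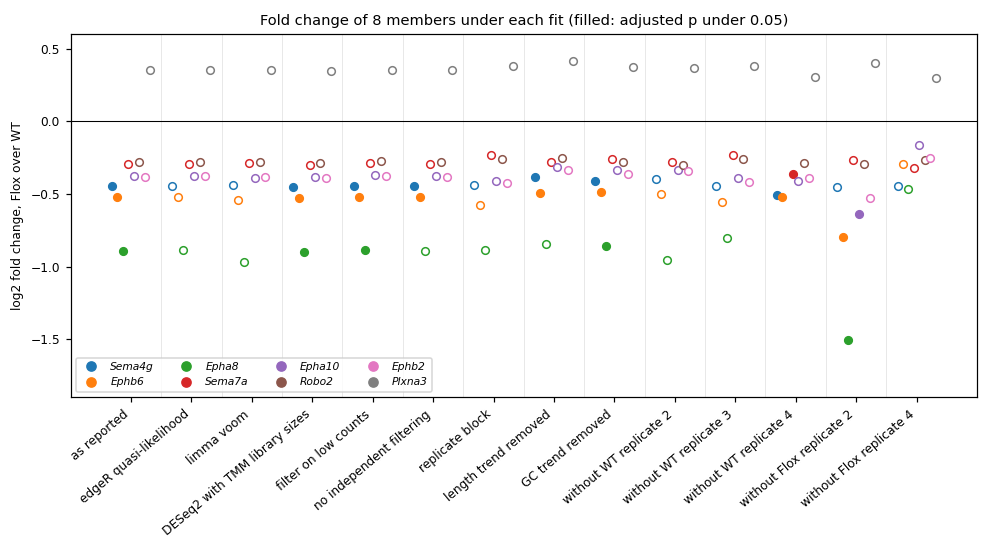
Log2 fold change of Flox over WT (vertical axis) of the 8 members with an unadjusted p under 0.05, as reported and under each of 13 alternative fits (horizontal axis), coloured by gene. Filled points have an adjusted p under 0.05 in that fit, and Epha8 has no point without WT 4, where independent filtering left it without an adjusted p. Epha8 ranges from -1.51 to -0.47, and Sema4g stays between -0.50 and -0.38.

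Guidance genes are long, and length moved with the estimates in the whole table. Their median exonic length was 7041 bases, against 4164 over all genes with a mean of at least 10, and 38 of the 68 members fell in the longest of 4 equal bins of genes. From the shortest bin to the longest, the median log2 fold change of all genes was 0.14, -0.0072, -0.0512 and -0.0547. Most of the trend thus lay between the shortest bin and the rest. The members' medians in the same order were 0.09, -0.10, -0.04 and -0.11. With the trend on length removed the members' median was -0.0475, and the part of length in single estimates was not tested.

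Markers of several other cell types differed between the genotypes. The 12 microglial markers summed to 1557 to 2949 normalized counts in WT and to 5220.0 and 11130 in Flox. Of these, 9 of 12 were higher at a DESeq2 adjusted p under 0.05 (against 4.2% of all tested genes). The 8 endothelial markers summed to 128 to 288 in WT and to 299.7 and 770.4 in Flox (3 of 8 higher). The 5 T lymphocyte markers summed to 28.8 to 60.05 in WT and to 172 and 310.2 in Flox. Of these 5, 4 had an adjusted p and 3 were higher. Pericyte markers summed to 249 to 624 in WT and to 783 and 547 in Flox, and no marker of any list was at 0 in every library, although the T lymphocyte marker Cd3g was at 0 in WT 4. Flox 4 was the highest library for microglial, endothelial and T lymphocyte markers. The sum of the glutamatergic markers was lowest in Flox 4 and WT 4 (4897 and 4902, against 6183 to 7365 in the others). Slc17a7 was also low there (800 in Flox 4 and 390 in WT 4, against 2303 to 2974), and so was Slc17a8. The most abundant of the list, Slc17a6, had its highest value in WT 4 (4301) and its lowest in Flox 2 (3526). The 5 GABAergic markers summed to 32020.0 to 32450.0 in WT and to 31480.0 and 29480.0 in Flox, both below WT, with Gad2 lower (log2 fold change -0.35, adjusted p = 0.0303 by DESeq2) and Sst higher (0.54, adjusted p = 0.0157).

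Some guidance members are known from blood vessels, and their values are given beside these sums. Plxnd1, the endothelial plexin for Sema3e, had 129, 117 and 105 normalized counts in WT and 132 and 177 in Flox (log2 fold change 0.40 ± 0.25 SE, adjusted p by DESeq2 = 0.388). Ephb4, the receptor of venous endothelium, had 49.5, 43.8 and 40.4 in WT and 67.2 and 49.7 in Flox, and Robo4 had 3.16, 6.11 and 3.84 in WT and 2.88 and 14.9 in Flox. Flox 4 was the highest library for Plxnd1 and Robo4 but not for Ephb4. Efnb2, the arterial ligand of Ephb4, and Unc5b, which is also found in vessels, had estimates of -0.21 and -0.04, and none of these 5 members passed the test. The part of such cells in these values, and in the lower ones, was not tested.

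**Figure D5:**
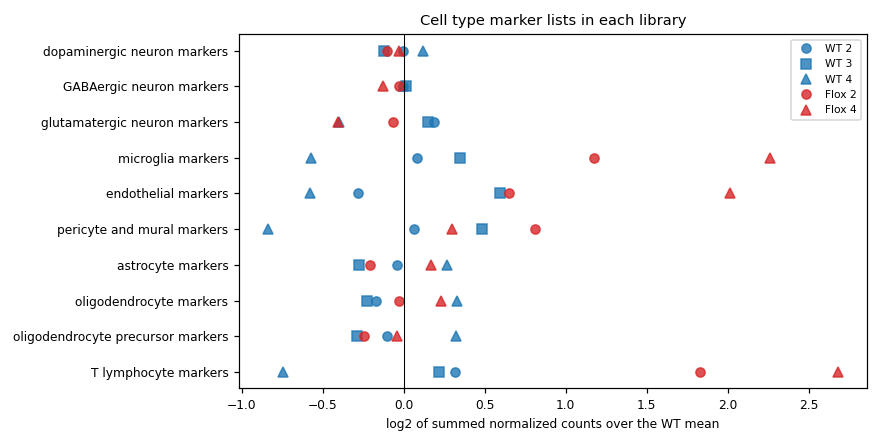
Summed normalized counts of 10 cell type marker lists in each library, as the log2 ratio to the mean of the 3 WT libraries (horizontal axis), blue for WT and red for Flox. Microglial, endothelial and T lymphocyte markers lie to the right of WT in both Flox libraries and furthest right in Flox 4, whereas dopaminergic, astrocyte and oligodendrocyte markers overlap.

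Further genes of guidance signalling were taken from 2 lists drawn up by role, 19 other receptors, ligands and their modifiers and 63 intracellular effectors, all with a mean of at least 10 normalized counts. By DESeq2, 6 of these 82 genes fell (7.32%) and 1 rose (1.22%) at an adjusted p under 0.05, against the 4.05% and 4.2% of all tested genes. The median log2 fold change was -0.19 for the receptors and ligands and -0.07 for the effectors. The 6 became 2, 3 and 1 without WT 2, WT 3 and Flox 4, and the 1 became 0 without WT 2, WT 4 or Flox 4.

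Arhgef11, a RhoA activator bound by plexin-B receptors, had 799.6, 715 and 742 normalized counts in WT and 447 and 208 in Flox. Both Flox libraries were far below WT and Flox 4 was the lower, with a log2 fold change of -1.20 ± 0.24 (SE) and a DESeq2 adjusted p of 1.1e-04. The estimate was -0.76 without Flox 4 and -1.86 without Flox 2, and the adjusted p was 0.2 without WT 3 and 0.133 without WT 4 by DESeq2 and 0.0519 by edgeR. Limk1, the kinase of the actin-severing protein cofilin, had 4415, 4109 and 4071 in WT and 3048 and 2175 in Flox, a log2 fold change of -0.68 ± 0.14 (SE) with a DESeq2 adjusted p of 1.8e-04. The study picked Limk1 from these libraries and from genes raised by ERRγ overexpression in the SH-SY5Y cell line. Its direction here is therefore not independent evidence. By qPCR of midbrain, the study also reported lower Limk1 with Esrrg knockdown but no increase with overexpression. Arhgap35, a RhoA inactivator, had 4616, 4679.5 and 4289.9 in WT and 3581 and 2882 in Flox, and its log2 fold change of -0.49 had a DESeq2 adjusted p of 0.00262. Without Flox 4 the adjusted p by DESeq2 was 0.0587 for Limk1 and 0.316 for Arhgap35.

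Farp2, a Rac activator that acts downstream of class 3 semaphorins, had 114, 68.3 and 106 normalized counts in WT and 50.9 and 28.8 in Flox (log2 fold change -1.26 ± 0.37 SE). Pak1, a kinase activated by Rac and Cdc42, had 9834, 8947 and 8682 in WT and 7943 and 6397 in Flox (log2 fold change -0.35 ± 0.12 SE). Dscam, a cell adhesion molecule that can act as a netrin receptor, was the one partner receptor that fell, from 1559, 1395 and 1399.8 in WT to 1221 and 1019 in Flox (log2 fold change -0.37 ± 0.13 SE). In each of these 3 genes both Flox libraries lay below WT (against 22.0% of all genes) and Flox 4 was the lowest (against 31.5%). Their DESeq2 adjusted p was 0.0163, 0.0447 and 0.0477. Without Flox 4 the estimates of Pak1 and Dscam were -0.21 and -0.25 (DESeq2 adjusted p = 0.799 and 0.795), and by edgeR the adjusted p of Farp2, Pak1 and Dscam was 0.0674, 0.106 and 0.0974. The calls of Farp2, Pak1 and Dscam were also lost without WT 2 (DESeq2 adjusted p = 0.222, 0.35 and 0.387). Rock1, the RhoA-activated kinase, rose, with 493, 515 and 434 in WT and 629 and 768 in Flox (log2 fold change 0.54 ± 0.16 SE, adjusted p by DESeq2 = 0.0130), and its adjusted p was 0.678 without Flox 4 and 0.0594 by edgeR.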

How the data were processed

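Pooled midbrains were used for BAC-TRAP in 5 libraries (3 WT, 2 Flox), grouped by the genotype in the labels. The authors deposited raw read counts per gene from Trim Galore 0.6.6, STAR and HTSeq. The methods name GRCm38.p6, and the submitters' processing notes list GRCm39, STAR 2.7.9a and HTSeq 0.11.3. The 5 summary lines (12.62 to 14.25% of reads) were left out. GENCODE M21 symbols matched 97.0% of IDs. All 29407 genes with at least 1 count were fitted with DESeq2 1.42.0 (R 4.3.3, size factors, two-sided Wald test, independent filtering, Benjamini-Hochberg adjustment over all genes), the comparison stated in the study's methods, with edgeR 4.0.16 and limma 3.58.1 as alternatives. Normalized counts are counts divided by size factors, and levels per kb use merged exons. The code was tested on simulated data. The members and lists were chosen with earlier results of these data known. Genes were named where an adjusted or unadjusted p was under 0.05, where the level was highest in a role, or as examples of a group. Counts cover 20635855 to 23105058 reads a library.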

Additional observations from a re-analysis of the deposited data

How the results depend on the processing

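The count of 3 members lower in Flox by DESeq2 became 0 with edgeR's quasi-likelihood test (8 at an unadjusted p under 0.05), 0 with limma voom (8 unadjusted) and 1 with a fold of at least 1.5 as well, and ran from 0 to 4 when 1 library was left out. It was 0 without WT 2, WT 3 or Flox 4. With the replicate number as a block the count was also 0 (4 unadjusted). The labels share replicate numbers 2 and 4 between genotypes without saying that they mark a batch. Deviations of same-numbered libraries from their group means correlated at 0.095 and 0.089 over 16711 genes. The deviations of the 2 Flox libraries mirror each other, so these values cannot decide whether same-numbered libraries shared a batch. The partner genes that fell, 6 in DESeq2, were 1 with edgeR, 0 with limma voom, 3 with the fold limit and 1 to 7 when 1 library was left out. The partner gene that rose, Rock1, gave a count of 0 with edgeR, limma voom or the fold limit, 2 with the length trend or the GC trend removed, and 0 to 1 when 1 library was left out. The members' median log2 fold change stayed between -0.14 and -0.03 in every fit. Esrrg ranged from -0.55 without Flox 2 to -0.19 without Flox 4. Estimates near 0 changed sign for Plxnb1 (from -0.17 without Flox 4 to 0.20 without Flox 2, with -0.0054 without WT 2), Ntng1 (from -0.20 without Flox 4 to 0.32 without Flox 2) and Nrp2 (from -0.026 without WT 4 to 0.14 without Flox 4, with -0.02 without Flox 2). Over the members and partner genes named by p and the highest members of each role, all other values kept their direction. Of these, 59 were no longer past their threshold and 2 newly were. Further members with estimates near 0 changed sign too, among them Nrp1 (from -0.14 without Flox 4 to 0.18 without Flox 2). For Plxnc1 the estimate was 0.17 without Flox 4 and -0.20 without Flox 2. Adjusted p ranged from 0.0112 to 0.360 for Sema4g, 1.6e-04 to 0.729 for Ephb6 and 0.00102 to 0.844 for Epha8. The cause of these shifts was not tested. With 2 Flox pools, 19 of 68 members had intervals that reached past 1.5-fold.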
